A study of Mus musculus with 24 samples.

Results

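Embigin-positive (EMB+) and embigin-negative (EMB-) cells of the GFP+ lineage of mouse vertebrae were compared over 10595 genes. These were all genes that reached 1 FPKM in at least 4 of the 8 libraries, out of 21948 genes kept from the deposited table. FPKM counts sequenced fragments per kilobase of transcript and relative to all mapped fragments, so it is a level scaled to gene length and to library. Embigin is a glycoprotein of the cell surface encoded by Emb. Both groups were primary cells from the spine of male mice at postnatal day 10, with the genotype label WT. All had been sorted as GFP+ and CD200+ and as negative for CD31, TER119, CD45, Thy, 6C3 and CD105, and by label they differed in EMB staining alone. The design text calls the GFP+ vertebral cells zic1-cre positive, so GFP marks cells in which a Cre tied to Zic1 has acted. The reporter allele, the strain and the number of animals behind a library were not given in the sources used here. Each group held 4 libraries titled as biological replicates, and nothing further separates them. The p-values therefore reflect only how far libraries differ within groups, with the spread pooled over all 24 libraries of the series in 6 groups.

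Mouse cells with this surface profile are known as a fraction enriched for skeletal stem cells, which give rise to cartilage, bone and stroma. In growing cartilage, resting chondrocytes feed columns of dividing cells, which then stop dividing and enlarge. Cells about to enlarge secrete Indian hedgehog, which maintains division and acts on resting cells to release PTHrP, a factor that delays enlargement, and Wnt, BMP and FGF signals act on the same steps. Ligaments, the outer intervertebral disc and periosteum adjoin vertebral cartilage and are rich in fibrillar collagen, elastic fibres and small proteoglycans.

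Of the 10595 genes, 1452 (13.7%) were higher and 826 (7.8%) lower in EMB+ than in EMB- cells. A gene was called where the limma test on log2(FPKM + 1), adjusted over all 11768 genes tested, gave 0.05 or less with the same direction on the values as deposited and after median-ratio scaling of the libraries. Differences below are on that log2 scale from the values as deposited, EMB+ minus EMB-, which understates the change of genes at low levels, and the larger of the 2 adjusted p-values is given. The scaling set the balance of directions. As deposited, 4803 genes (45.3%) were higher and 826 lower, and after scaling 1452 were higher and 1592 (15.0%) lower. The median gene differed by 0.35 as deposited and by 0.01 after scaling, and no gene was called in opposite directions. Beside this shift, Col2a1 and Sparc together took 13.0% to 13.6% of all FPKM in the EMB+ libraries and 20.2% to 21.2% in the EMB- libraries. The part of this composition in the shift was not tested.

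**Figure D1:**
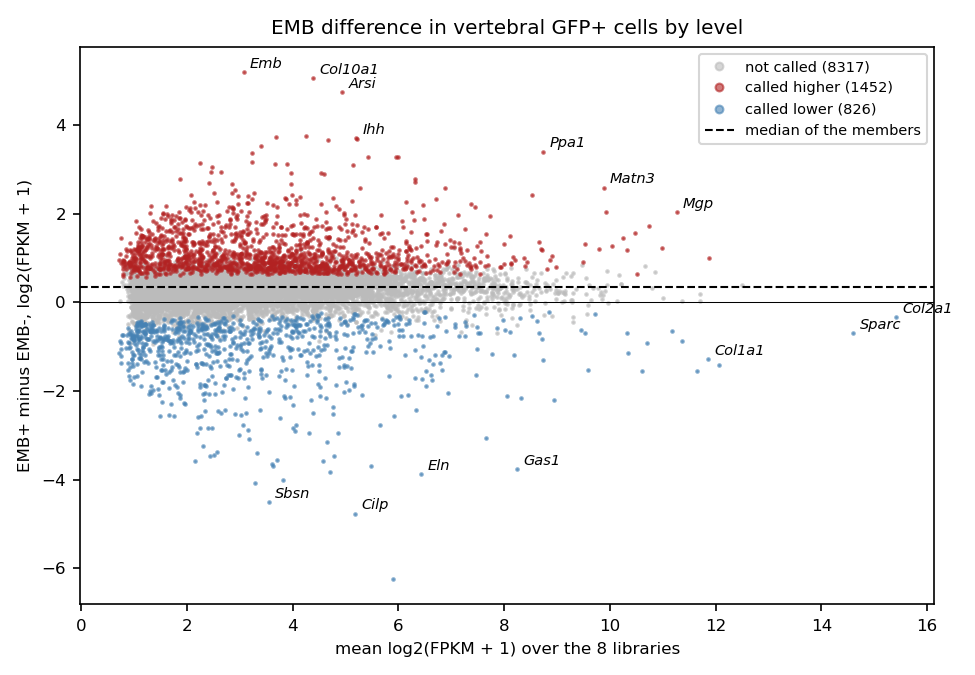
Mean level of each of the 10595 genes over the 8 libraries (x axis, log2(FPKM + 1)) against its log2 difference, EMB+ minus EMB- (y axis), with the 1452 genes called higher and the 826 called lower in colour and the median of 0.35 as a dashed line. The genes called higher reach up to Emb at 5.19 and those called lower down to 1520401A03Rik at -6.24.

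By size, 418 genes (3.95%) were called at 2-fold or more higher under both scalings and 348 (3.28%) at 2-fold or more lower. The groups did not overlap for 4814 genes (45.4%) with all EMB+ libraries above all EMB- libraries and for 857 (8.09%) with all below. Calls higher in EMB+ cells made up 17.6% of the 2649 most abundant genes and 12.1% of the 2649 least abundant, and calls lower in EMB+ cells 8.83% and 9.55%. A gene could enter through 1 group alone. Of the 193 genes at 1 FPKM or more in all EMB+ and no EMB- library, 151 were called, and of the 101 with the reverse pattern, 96. At the entry limit, Brca2 was just inside with a fourth-highest value of 1.0003 FPKM and Fcer1g just outside with 0.9995 FPKM.

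Libraries were alike within groups. Over genes, correlations were 0.981 to 0.989 for the 12 pairs within a group and 0.916 to 0.935 for the 16 pairs between groups. Each library had 10008 to 10298 of the 10595 genes at 1 FPKM or more. The 4 libraries of the vertebral GFP- EMB+ group carry titles naming Emb- GFP+ cells, against their cell type labels, and were placed by the cell type label. Although not compared here, they entered the fit of all 24 libraries, and without them 1345 genes were higher and 811 lower. With only the 8 compared libraries in the fit, 1897 genes were higher and 971 lower. The read depth behind FPKM values is unknown, so no counting interval is given.

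Emb followed the sort. Its level was 48.7, 56.5, 48.2 and 46.6 FPKM in the EMB+ libraries and 0.386, 0.543, 0.238 and 0.425 FPKM in the EMB- libraries, a 126-fold difference of the means with no overlap (chromosome 13, 117220625 to 117274098, GRCm38). The difference was 5.19 (SE 0.12, adjusted p = 1.0e-19), the largest of any gene higher in EMB+ cells, and Emb, as the sorting antigen, is a check of the labels. Zic1, the transcription factor behind the Cre, was low in both groups, at 1.51, 2.39, 1.62 and 1.97 FPKM in the EMB+ libraries and 0.349, 0.841, 1.39 and 0.729 FPKM in the EMB- libraries. All EMB+ libraries were above all EMB- libraries, with a difference of 0.67 (SE 0.14, adjusted p = 0.015). Its call was lost without EMB+ replicate 2 (0.067) and EMB- replicate 1 (0.085). It was also lost with only the 8 compared libraries in the fit (0.068) and with a pseudocount of 0.1 (0.12). Cd200, the antigen required by the gate, had 142 ± 15.8 against 132 ± 9.13 FPKM (SD, n = 4 here and in all later means), and the groups overlapped. The antigens sorted against for which values follow were near or below the entry limit. No value is given for TER119. Eng, which encodes CD105, had 1.34 ± 0.183 against 1.87 ± 0.324 FPKM and did not pass (adjusted p = 0.25), while Ptprc (CD45), Thy1 and Enpep (6C3) reached at most 0.263, 0.0563 and 0.457 FPKM in any library and Pecam1 (CD31) at most 1.06 FPKM.

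Among the 12 genes with the largest differences higher in EMB+ cells, Col10a1, Ihh and Panx3 are in the list of growth plate hypertrophy. Col10a1, the short-chain collagen X made by enlarging chondrocytes (chromosome 10, 34389981 to 34397085), had 134, 82.9, 142 and 129.5 FPKM in the EMB+ libraries and 1.21, 3.81, 2.995 and 2.98 FPKM in the EMB- libraries. The lowest EMB+ library was far above the highest EMB- library, and the difference was 5.06 (SE 0.33, adjusted p = 1.2e-10). Arsi, which encodes an arylsulfatase (chromosome 18, 60911780 to 60918561), had 164.8, 153.5, 155 and 160.8 FPKM in the EMB+ libraries and 5.32, 5.40, 5.25 and 3.90 FPKM in the EMB- libraries, with a difference of 4.75 (SE 0.13, adjusted p = 1.7e-18). Its EMB+ libraries lay closer together than those of Col10a1. Ihh, the Indian hedgehog ligand (chromosome 1, 74945315 to 74951672), had 133, 146, 126 and 124 FPKM in the EMB+ libraries and 8.215, 10.9, 12.7 and 6.19 FPKM in the EMB- libraries, and the groups stood 14.0-fold apart (3.71, SE 0.20, adjusted p = 3.6e-12).

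Wnt11, a Wnt ligand (chromosome 7, 98835112 to 98855195), had 129, 159, 128 and 117 FPKM in the EMB+ libraries and 7.67, 10.2, 14.0 and 6.93 FPKM in the EMB- libraries, a difference of 3.68 (SE 0.24, adjusted p = 5.7e-11). Bmp7, a bone morphogenetic protein (chromosome 2, 172868012 to 172940321), had 24.4, 32.5, 29.7 and 31.6 FPKM in the EMB+ libraries and 1.56, 2.165, 2.17 and 1.915 FPKM in the EMB- libraries, a difference of 3.37 (SE 0.16, adjusted p = 2.6e-12). The EMB- levels of Bmp7 were close to the entry limit. F13a1, which encodes the catalytic subunit of the transglutaminase factor XIII, had 77.1, 136, 80.6 and 75.6 FPKM in the EMB+ libraries and 5.87, 6.42, 5.66 and 6.51 FPKM in the EMB- libraries. EMB+ replicate 2 was well above the other 3, and all were far above the EMB- libraries (3.67, SE 0.23, adjusted p = 1.8e-10). The remaining genes among the 12 with the largest differences were R3hdml (69.9 against 4.315 FPKM), Prkg2 (46.5 against 2.65), a cGMP-dependent kinase needed for hypertrophy in the growth plate, Tnnt3 (34.85 against 2.135), a troponin of fast muscle, Ppa1 (1389 against 132), an inorganic pyrophosphatase, and Panx3 (133.5 against 13.0), a channel protein of hypertrophic cartilage and bone. Their differences ran from 3.28 to 3.75. Groups that did not overlap were a condition for naming all 12 genes.

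**Figure D2:**
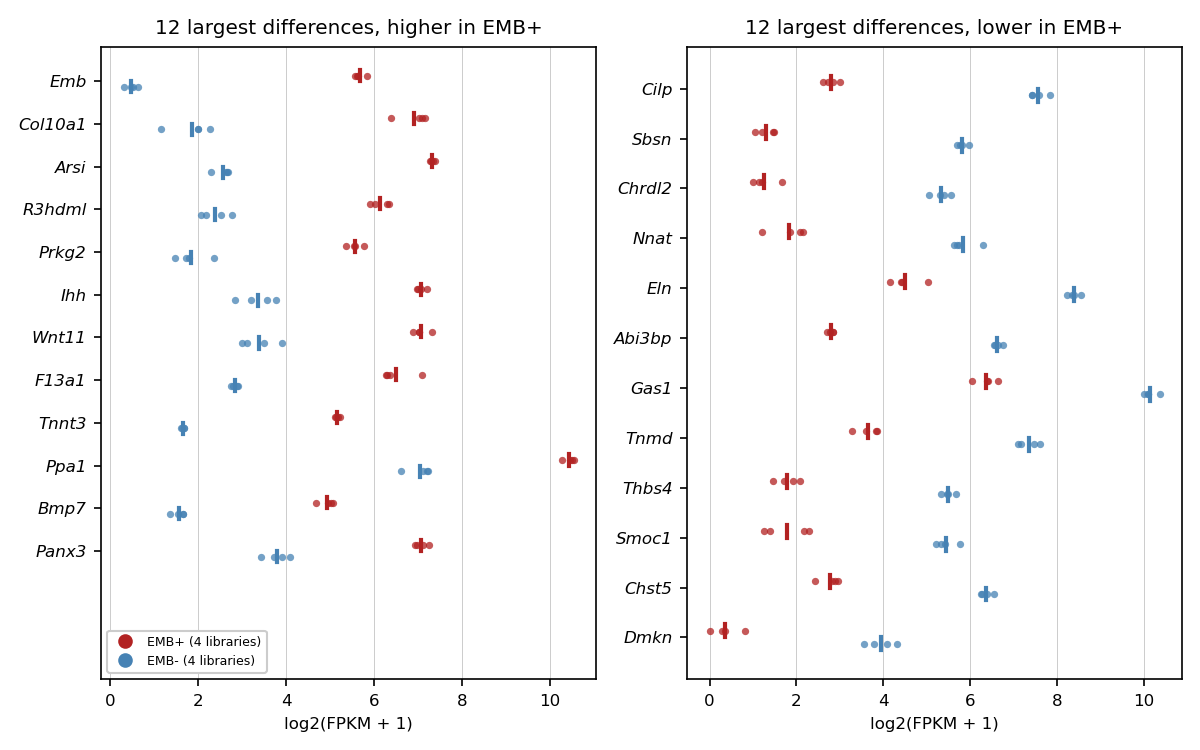
Level of each library (points, log2(FPKM + 1), x axis) for the 12 genes with the largest differences in each direction, with group means as ticks, EMB+ in red and EMB- in blue. The groups are apart for all 24 genes by the rule that chose them. The largest differences are those of Emb (5.19) and Col10a1 (5.06) on the left and Cilp (-4.77) and Sbsn (-4.51) on the right.

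The 12 genes with the largest differences in the other direction include the matrix genes Cilp, Eln and Abi3bp and the tendon genes Tnmd and Thbs4. Cilp, the cartilage intermediate layer protein (chromosome 9, 65265180 to 65280605), had 5.58, 6.16, 5.12 and 7.01 FPKM in the EMB+ libraries and 191.02, 228, 171.4 and 169.6 FPKM in the EMB- libraries, a difference of -4.77 (SE 0.27, adjusted p = 5.4e-13). Gas1, a membrane co-receptor for Hedgehog ligands (chromosome 13, 60174405 to 60177365), had 64.6, 84.05, 98.0 and 82.7 FPKM in the EMB+ libraries and 1017, 1308, 1091 and 1082 FPKM in the EMB- libraries, and its EMB- mean was 13.7-fold above the EMB+ mean (-3.76, SE 0.18, adjusted p = 3.2e-14). Both genes stayed above the entry limit in every EMB+ library. Chrdl2, a secreted BMP antagonist (chromosome 7, 100006172 to 100034728), had 1.33, 1.002, 2.17 and 1.21 FPKM in the EMB+ libraries and 38.5, 32.3, 46.1 and 41.2 FPKM in the EMB- libraries, a difference of -4.07 (SE 0.17, adjusted p = 4.6e-15). Eln, which encodes elastin (chromosome 5, 134702593 to 134747323), had 16.7, 20.4, 31.6 and 20.3 FPKM in the EMB+ libraries and 376, 323, 332.5 and 298 FPKM in the EMB- libraries. The highest EMB+ library was far below the lowest EMB- library (-3.87, SE 0.23, adjusted p = 1.0e-12). Tnmd, the tendon and ligament membrane protein tenomodulin (chromosome X, 133850980 to 133865577), had 8.73, 13.3, 13.4 and 11.15 FPKM in the EMB+ libraries and 143.5, 137, 195 and 176.2 FPKM in the EMB- libraries, a difference of -3.70 (SE 0.21, adjusted p = 5.2e-13). The other genes of this group were Sbsn (1.49 against 55.3 FPKM), Nnat (2.64 against 57.2), which is expressed from the paternal copy, Abi3bp (5.93 against 97.5), an extracellular matrix protein, Thbs4 (2.51 against 44.0), a tendon thrombospondin, Smoc1 (2.605 against 42.65), a matricellular protein that modulates BMP signals, Chst5 (5.91 against 81.7), a carbohydrate sulfotransferase, and Dmkn (0.314 against 14.6). Predicted genes were left out of this naming. Among them 1520401A03Rik, picked after its values were seen, had 4.20, 6.26, 5.53 and 8.18 FPKM in the EMB+ libraries and 549, 413, 575 and 564 FPKM in the EMB- libraries, the largest difference of any gene (-6.24, SE 0.24, adjusted p = 3.6e-16).

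Counts in this and the later lists stand beside shares over all 10595 genes of 13.7% higher and 7.8% lower. In the list of growth plate hypertrophy, 14 of 15 genes were among the 10595, and 10 were higher and 1 lower in EMB+ cells. Their median difference was 1.84, against 0.35 over all 10595 genes. After Col10a1, Ihh and Panx3 came Runx3, a transcription factor that acts with Runx2 in chondrocyte maturation, with 27.4 ± 3.04 against 2.16 ± 0.4545 FPKM (3.17, SE 0.14, adjusted p = 4.8e-14). Pth1r, the receptor for PTHrP, was high in both groups, with 873, 974, 794 and 785 FPKM in the EMB+ libraries and 165.3, 161.3, 150.0 and 155 FPKM in the EMB- libraries. Every EMB+ library exceeded every EMB- library, with means 5.42-fold apart and a difference of 2.43 (SE 0.11, adjusted p = 2.1e-13). Mmp13, the collagenase of hypertrophic cartilage, had 154 ± 8.13 against 31.2 ± 3.90 FPKM (2.27, SE 0.26), and Mef2c, a transcription factor that drives hypertrophy, 121 ± 5.22 against 36.8 ± 5.13 FPKM (1.70, SE 0.12). Spp1, which encodes osteopontin, and Alpl, the alkaline phosphatase of mineralizing cells, differed by 1.56 (SE 0.20) and 1.49 (SE 0.17). The gene called lower was Vegfa, the angiogenic factor of hypertrophic cartilage, with 15.2, 9.71, 10.1 and 10.1 FPKM in the EMB+ libraries and 18.8, 15.35, 17.7 and 15.5 FPKM in the EMB- libraries (-0.55, SE 0.16, adjusted p = 0.0072). Ibsp, bone sialoprotein, had 429 ± 43.3 against 532 ± 22.1 FPKM and did not pass (adjusted p = 0.12). With only the 8 compared libraries in the fit Ibsp was called lower (adjusted p = 0.0071).

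Skeletal transcription factors went both ways. Of 28 among the 10595, 11 were higher and 3 lower (median 0.66). Runx2, which directs osteoblast and hypertrophic differentiation, had 31.7, 33.0, 43.3 and 38.0 FPKM in the EMB+ libraries and 5.95, 11.2, 9.11 and 8.11 FPKM in the EMB- libraries. Sp7, the osteoblast factor osterix downstream of Runx2, had 65.7, 72.0, 56.9 and 57.4 FPKM in the EMB+ libraries and 14.9, 15.8, 14.7 and 13.5 FPKM in the EMB- libraries. Their means were 4.25-fold and 4.28-fold higher in EMB+ cells with no overlap, at log2 differences of 1.99 (SE 0.17, adjusted p = 2.4e-07) and 2.02 (SE 0.20, adjusted p = 1.5e-06). Dlx5, a homeobox factor of skeletal differentiation, differed by 2.57 (SE 0.13) and Foxa3, a forkhead factor, by 1.70 (SE 0.19). Lower were Twist2 (0.807 against 3.90 FPKM, -1.41), a repressor of osteoblast maturation, Runx1 (8.12 against 14.3, -0.75) and Trps1 (24.3 against 41.0, -0.73), a GATA-type repressor. Sox9, the master factor of chondrocytes, had 528 ± 64.3 against 331 ± 18.6 FPKM. Its groups did not overlap, but it was not called because the scaled values did not pass (adjusted p = 0.2). It was called higher with only the 8 compared libraries in the fit (adjusted p = 0.03).

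Cartilage matrix genes were mostly higher in EMB+ cells, 13 of 22 with a median of 1.15, and 3 were lower. Matn3, which encodes matrilin 3, had 2240, 2538, 2338 and 2184 FPKM in the EMB+ libraries and 395, 437, 414 and 304 FPKM in the EMB- libraries, a 6.001-fold difference of the means (2.59, SE 0.21, adjusted p = 1.7e-08). Acan, the core protein of aggrecan, had 646, 621, 629 and 634.5 FPKM in the EMB+ libraries and 269.8, 252, 277.5 and 295 FPKM in the EMB- libraries, which differ by 1.21 (SE 0.13, adjusted p = 5.7e-06). The chains of collagens IX and XI, which form fibrils together with collagen II, were higher too. Col9a3 had 3101 ± 85.8 against 942 ± 26.7 FPKM, Col9a2 3111 ± 274 against 1325 ± 112 FPKM and Col11a2 2033 ± 84.4 against 737 ± 31.2 FPKM, with differences of 1.72, 1.23 and 1.46. Comp, a thrombospondin of cartilage and tendon, had 5337 ± 271 against 2678 ± 133 FPKM (0.99, SE 0.15). Col2a1, the main cartilage collagen and the most abundant RNA in both groups, went the other way, with a level of 37204, 38167, 39312 and 39443 FPKM in the EMB+ libraries and 47911, 51026, 48071 and 48585 FPKM in the EMB- libraries. The groups did not overlap, and the difference was small at -0.34 (SE 0.13, adjusted p = 0.03). This call was lost without EMB+ replicate 1 (0.072), EMB+ replicate 2 (0.057), EMB- replicate 2 (0.072), EMB- replicate 3 (0.052) and EMB- replicate 4 (0.055). Cytl1, a secreted chondrocyte protein, and Fibin were also lower, at 929.7 ± 189.98 against 2721 ± 582 FPKM and 317 ± 17.3 against 512 ± 4.95 FPKM. Chad, which encodes chondroadherin, and Lect1, the antiangiogenic chondromodulin, had 6802 ± 1446 against 5082 ± 358 FPKM and 3540 ± 103 against 3136 ± 160.8 FPKM and were not called.

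None of the 15 genes listed for joint surface and resting zone cartilage was higher in EMB+ cells, and 12 were lower, with a median of -2.11. Prg4, the lubricin of joint surfaces, had 44.9, 54.95, 75.7 and 116 FPKM in the EMB+ libraries and 467, 539, 635 and 713 FPKM in the EMB- libraries (-3.07, SE 0.39, adjusted p = 9.6e-07). Barx1, a homeobox factor, had 7.98 ± 4.13 against 92.8 ± 23.0 FPKM (-3.48, SE 0.35) and Grem1, a BMP antagonist that also marks skeletal stem cells, 2.16 ± 0.632 against 31.9 ± 2.41 FPKM (-3.40, SE 0.25). Wif1, a secreted Wnt inhibitor, remained abundant in both groups, at 458, 447, 424 and 481 FPKM in the EMB+ libraries and 1357, 1320, 1220 and 1344 FPKM in the EMB- libraries, with a difference of -1.53 (SE 0.14, adjusted p = 2.9e-09). Clu, which encodes clusterin, and Cilp2, a relative of Cilp, differed by -2.12 (SE 0.14) and -1.30 (SE 0.17). Sfrp5 had 89.2 ± 13.0 against 109 ± 9.75 FPKM and was not called. With only the 8 compared libraries in the fit Sfrp5 was called lower (adjusted p = 0.029).

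Osteoblast and osteocyte genes went both ways. Among 20, 5 were higher and 6 lower, with a median of 0.16. Those higher were Sp7, Spp1 and the mineralization enzymes Smpd3 (422 ± 49.8 against 108.5 ± 16.25 FPKM, 1.95, SE 0.17), Phospho1 (32.4 ± 3.34 against 8.74 ± 0.987 FPKM, 1.78, SE 0.16) and Alpl (467 ± 92.85 against 163.4 ± 11.97 FPKM). Those lower included both chains of collagen I. Col1a1 had 2869, 2070, 2221 and 2453 FPKM in the EMB+ libraries and 5770, 5623, 6055 and 5791 FPKM in the EMB- libraries, a difference of -1.28 (SE 0.22, adjusted p = 4.0e-05). Col1a2 had 2634 ± 402 against 6959 ± 393 FPKM (-1.41, SE 0.20). Their EMB- means were thus 2.42-fold and 2.64-fold above the EMB+ means, while the EMB+ mean of Alpl was 2.86-fold above its EMB- mean. Mepe and Dmp1, proteins of osteocytes, differed by -1.64 (SE 0.30) and -0.98 (SE 0.28). Sparc, the collagen-binding protein osteonectin, had 19587 ± 587 against 31688 ± 1695 FPKM (-0.69, SE 0.16). Bglap, which encodes osteocalcin, had 399 ± 86.45 against 486 ± 112 FPKM with overlapping groups and was not called. Among 10 genes of mineral and phosphate handling, 6 were higher and 1 lower. Mgp, the matrix Gla protein that inhibits calcification, had 3674, 3999, 6178 and 6734 FPKM in the EMB+ libraries and 797, 1251, 1450 and 1495 FPKM in the EMB- libraries, a difference of 2.03 (SE 0.30, adjusted p = 8.6e-05). Vdr, the vitamin D receptor, and Fam20c, the kinase of secreted mineral proteins, differed by 1.70 (SE 0.17) and 1.34 (SE 0.09).

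**Figure D3:**
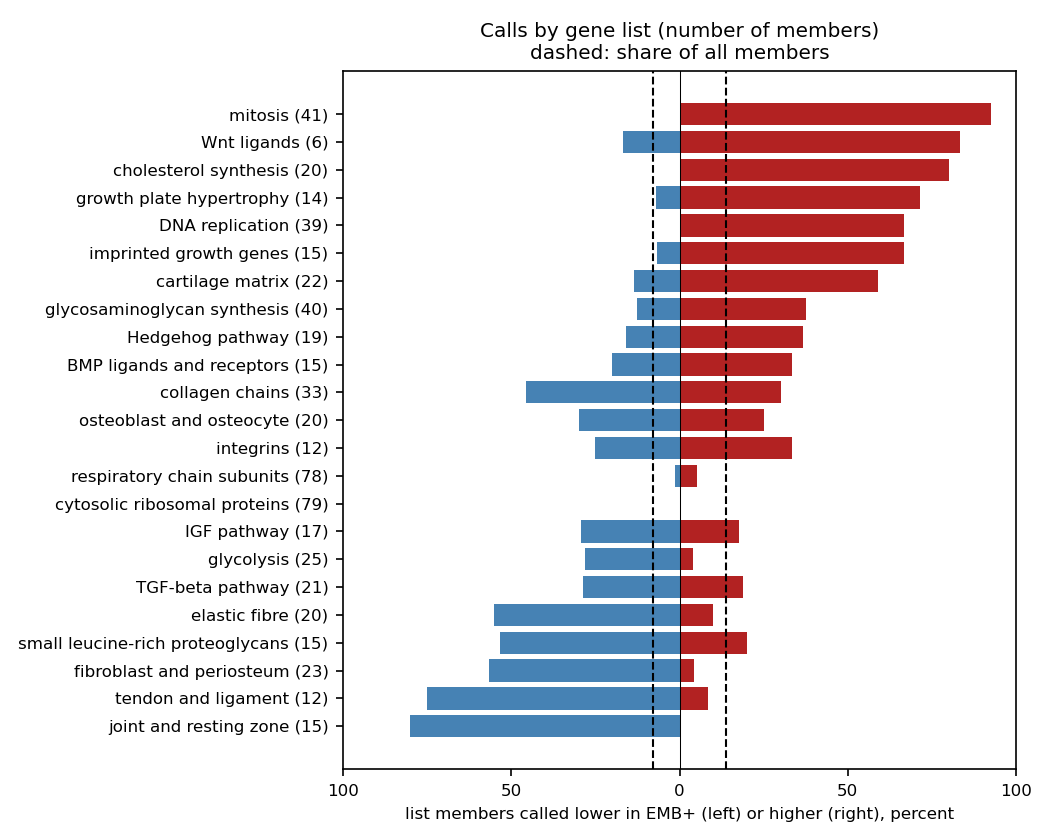
Share of the genes of 23 lists called higher (right) or lower (left) in EMB+ cells, as a percentage of the list's genes among the 10595, with the shares over all 10595 genes (13.7% and 7.8%) as dashed lines. Mitosis reaches 92.7% higher, and joint and resting zone 80.0% lower.

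Tendon and ligament genes were mostly lower in EMB+ cells, 9 of 12, with 1 higher and a median of -1.50. In bulk libraries, fewer cells of a type and less RNA per cell cannot be told apart. Scx, the tendon transcription factor scleraxis, had 3.935, 4.29, 4.35 and 7.23 FPKM in the EMB+ libraries and 21.0, 23.3, 22.5 and 24.3 FPKM in the EMB- libraries, a difference of -2.03 (SE 0.23, adjusted p = 1.5e-07). Thbs2 and Col14a1, which regulate collagen fibrils, differed by -2.09 (SE 0.20) and -2.77 (SE 0.19). Fmod, a proteoglycan of tendon and cartilage, stayed high at 1965 ± 68.4 against 3585 ± 232 FPKM (-0.87, SE 0.15). The gene higher in EMB+ cells was Clec11a, a secreted bone growth factor (104 ± 10.3 against 49.25 ± 4.60 FPKM).

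Fibroblast and periosteum genes showed 13 of 23 lower and 1 higher, with a median of -0.70. Postn, the periosteal matrix protein periostin, had 19.3, 15.4, 22.3 and 17.05 FPKM in the EMB+ libraries and 138, 126, 150.2 and 111 FPKM in the EMB- libraries, a difference of -2.77 (SE 0.23, adjusted p = 9.1e-10). Col3a1 had 243.5, 193.5, 228 and 249.5 FPKM in the EMB+ libraries and 1124, 1117, 1148 and 862 FPKM in the EMB- libraries, also without overlap (-2.21, SE 0.18, adjusted p = 4.4e-10). Dpt (dermatopontin), Aspn (asporin), Igfbp6 and Ogn (osteoglycin) differed by -2.60, -2.17, -2.16 and -2.05. Lum, the proteoglycan lumican, was the gene that ran against the rest, with 345, 361.5, 338 and 341 FPKM in the EMB+ libraries and 111, 131, 131 and 102 FPKM in the EMB- libraries (1.55, SE 0.16, adjusted p = 1.2e-05). Not every collagen of loose matrix passed. Col6a1 had 817 ± 63.2 against 781 ± 49.4 FPKM with overlapping groups, and Col6a2 687 ± 17.6 against 828 ± 25.2 FPKM, and neither was called. With only the 8 compared libraries in the fit Col6a2 was called lower (adjusted p = 0.0065).

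Elastic fibre genes were lower in 11 of 20 cases and higher in 2 (median -0.63). Beside Eln itself, these were the microfibril proteins Mfap4 (18.0 ± 4.20 against 69.15 ± 15.4 FPKM, -1.88) and Mfap2 (74.0 ± 9.76 against 171.6 ± 21.5 FPKM, -1.20), the latent TGF-beta binding protein Ltbp4 (7.92 ± 0.862 against 49.0 ± 2.75 FPKM, -2.49), the fibulin Fbln2 (-2.08) and the crosslinking enzyme Loxl1 (-1.26). Loxl4, another lysyl oxidase, had 77.4, 65.65, 57.5 and 52.0 FPKM in the EMB+ libraries and 8.63, 10.3, 6.07 and 5.54 FPKM in the EMB- libraries, an opposite difference of 2.91 (SE 0.22, adjusted p = 5.7e-09). Emilin1 was higher too (1.01). Of 15 small leucine-rich proteoglycans, which bind and space collagen fibrils, 3 were higher (Epyc 1.76, Lum 1.55, Podnl1 1.41) and 8 lower, among them Bgn, biglycan (1214 ± 102 against 2295 ± 104 FPKM), and Dcn, decorin (582 ± 36.45 against 949 ± 65.7 FPKM). Among 22 matricellular genes, 4 were higher and 10 lower. Ctgf and Cyr61, CCN proteins known as targets of YAP, had 2002 ± 307 against 484 ± 66.3 FPKM and 1918 ± 119 against 854 ± 38.9 FPKM (2.04, SE 0.14 and 1.17, SE 0.13), whereas Wisp2, a further CCN protein, differed by -1.55 (SE 0.18).

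Over 33 collagen chains, 10 were higher and 15 lower. Apart from the cartilage chains, Col27a1, a fibrillar collagen of cartilage, had 128 ± 26.9 against 35.6 ± 8.99 FPKM (1.83) and Col12a1, which binds collagen I fibrils, 272 ± 43.1 against 87.5 ± 21.8 FPKM (1.65). Lower were Col8a1 (7.49 ± 1.18 against 74.7 ± 6.21 FPKM, -3.16), Col15a1 (-2.32) and the basement membrane chains Col4a1 (-1.64) and Col4a2 (-1.86). Among 29 matrix proteases and inhibitors, 6 were higher (20.7%) and 5 lower (17.2%), against 13.7% and 7.8% of all 10595 genes. Mmp9, a gelatinase of cartilage resorption and of osteoclasts, had 26.7, 15.8, 19.9 and 18.9 FPKM in the EMB+ libraries and 2.69, 3.90, 2.62 and 3.66 FPKM in the EMB- libraries (2.33, SE 0.36, adjusted p = 1.4e-04), and Mmp14, the membrane-bound collagenase, 137 ± 12.6 against 82.7 ± 9.26 FPKM (0.72). Adamts3, which processes procollagen II, was higher (1.65) and its relative Adamts2 lower (-0.58).

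The enzymes that build sulfated glycosaminoglycans were higher in 15 of 40 cases. Slc26a2, the sulfate transporter of chondrocytes, had 164.3, 157, 147 and 146 FPKM in the EMB+ libraries and 44.0, 34.1, 35.6 and 34.3 FPKM in the EMB- libraries (2.03, SE 0.18, adjusted p = 1.7e-07). Ugdh, which makes the UDP-glucuronate precursor, Papss2, which makes the sulfate donor, and Csgalnact1, which starts chondroitin chains, differed by 1.86 (SE 0.12), 1.35 (SE 0.16) and 1.65 (SE 0.16). In the list 5 genes were lower, but 3 without EMB+ replicate 4 or EMB- replicate 2 or 3. Sulf2, which removes sulfate from heparan chains, had 47.2 ± 7.24 against 179 ± 34.4 FPKM (-1.89, SE 0.18) and Chst3, a chondroitin sulfotransferase, 7.54 ± 1.56 against 30.3 ± 2.79 FPKM (-1.89, SE 0.22). Chaperones of the endoplasmic reticulum were higher in 7 of 25 cases (28.0%) and lower in 1 (4.0%), Herpud1, against 13.7% and 7.8% of all 10595 genes. Hspa5, which encodes BiP, had 413 ± 63.1 against 212.5 ± 37.4 FPKM (0.96, SE 0.13), and Pdia6 284 ± 10.65 against 126 ± 8.26 FPKM (1.16, SE 0.11). The collagen chaperone Serpinh1 had 1439 ± 112 against 937 ± 44.3 FPKM and was not called.

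Hedgehog genes went both ways. Of 19 among the 10595, 7 were higher and 3 lower. Ihh was the ligand present, with Shh listed at 0 in all 8 libraries and Dhh at most 0.763 FPKM. The genes of ligand release were higher, with Disp1 (dispatched) at 12.65 ± 1.60 against 4.78 ± 0.743 FPKM (1.24, SE 0.16) and Scube1, a secreted helper of ligand release, at 38.8 ± 7.75 against 5.30 ± 1.17 FPKM (2.66, SE 0.20). Scube2 and Scube3 differed by 2.04 (SE 0.17) and 1.23 (SE 0.22). Ptch1, the receptor and a target of the pathway, had 46.2, 53.9, 48.0 and 48.8 FPKM in the EMB+ libraries and 8.82, 11.6, 9.74 and 9.18 FPKM in the EMB- libraries. The EMB+ libraries were all above the EMB- libraries by 2.22 (SE 0.18, adjusted p = 3.7e-08). The 3 co-receptors were lower in EMB+ cells. After Gas1, Boc had 18.5, 16.3, 19.25 and 21.7 FPKM in the EMB+ libraries and 46.8, 45.7, 48.2 and 42.0 FPKM in the EMB- libraries (-1.23, SE 0.17, adjusted p = 1.6e-06) and Cdon 3.235 ± 0.728 against 9.70 ± 2.35 FPKM (-1.33, SE 0.22, adjusted p = 2.5e-05). Gli1, a transcription factor induced by the pathway, had 6.31 ± 0.617 against 3.59 ± 0.323 FPKM, Hhip, a decoy receptor, 46.1 ± 2.85 against 26.0 ± 1.06 FPKM and Smo, the signal transducer, 59.9 ± 4.80 against 74.4 ± 4.765 FPKM, and none was called (adjusted p = 0.12, 0.081 and 0.06). The calls of these 3 genes turned on the scaling and on which libraries were in the fit. With all 24 libraries, Gli1 and Hhip passed higher only as deposited (adjusted p = 0.001 and 0.0004). Smo passed lower only after median-ratio scaling (adjusted p = 0.00084). Without long bone EMB- replicate 4 Hhip was called higher (adjusted p = 0.02) and Smo lower (0.011), and with only the 8 compared libraries Gli1 and Hhip were called higher (0.036 and 0.0011) and Smo lower (0.0067).

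Around PTHrP, 5 of 14 genes were higher and 3 lower. The ligand Pthlh had 15.2, 10.9, 12.1 and 17.1 FPKM in the EMB+ libraries and 21.7, 19.9, 21.95 and 24.9 FPKM in the EMB- libraries, lower in every EMB+ library (-0.65, SE 0.16, adjusted p = 0.0021), while its receptor Pth1r was 5.42-fold higher. Nkx3-2, a repressor of hypertrophy, was higher (47.6 ± 5.51 against 20.9 ± 0.900 FPKM, 1.14, SE 0.12), and so was Sik3, a kinase that promotes it (13.9 ± 1.44 against 7.13 ± 1.01 FPKM, 0.88, SE 0.13). The related kinase Sik2 was lower (4.185 ± 0.389 against 7.17 ± 1.72 FPKM, -0.64, SE 0.19), and Mef2a and Mef2d had overlapping groups.

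Among the 19 Wnt ligands listed, 6 were among the 10595 genes, 5 higher and 1 lower in EMB+ cells. Over all 10595 genes, 13.7% were higher and 7.8% lower. Wnt4 and Wnt7b entered through the EMB+ group alone, so their direction was in part set by the entry rule. Wnt5b had 63.4, 60.5, 58.3 and 54.3 FPKM in the EMB+ libraries and 13.0, 12.3, 11.2 and 12.3 FPKM in the EMB- libraries (2.18, SE 0.12, adjusted p = 4.9e-11). Wnt5a and Wnt4 had 7.12 ± 0.564 against 1.25 ± 0.158 FPKM (1.85, SE 0.15) and 5.26 ± 1.25 against 0.552 ± 0.132 FPKM (2.00, SE 0.16), and the low Wnt7b 1.805 ± 0.686 against 0.192 ± 0.0472 FPKM (1.21, SE 0.22). Wnt9a, a ligand of joint formation, had 0.924, 1.27, 1.29 and 1.22 FPKM in the EMB+ libraries and 2.29, 4.76, 4.37 and 3.46 FPKM in the EMB- libraries, the reverse order (-1.09, SE 0.23, adjusted p = 4.5e-04). The other ligands reached at most 0.443 FPKM (Wnt6) in any library. Of 18 receptors and co-receptors, 3 were higher and 5 lower. Fzd8 and Lgr6, receptors for Wnts and for R-spondins, differed by -1.84 (SE 0.14) and -1.26 (SE 0.15), and the R-spondin Rspo3, which amplifies Wnt signals, had 13.95 ± 0.494 against 2.91 ± 0.184 FPKM (1.93, SE 0.16), while Rspo2 differed by -1.44 (SE 0.20). Inhibitors and targets of Wnt signals were divided, with 4 of 15 higher and 4 lower. The secreted inhibitors Dkk3, Dkk1 and Sfrp2 differed by -1.70, -1.20 and -1.01, beside Wif1. The effectors and targets Lef1 (13.7 ± 1.57 against 3.91 ± 1.24 FPKM), Nkd1 (14.7 ± 1.375 against 4.80 ± 0.315 FPKM), Tcf7 (11.9 ± 1.08 against 4.54 ± 0.974 FPKM) and Notum, a secreted Wnt deacylase (176.2 ± 18.4 against 81.7 ± 6.575 FPKM), were higher, by 1.61, 1.43, 1.23 and 1.10.

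**Figure D4:**
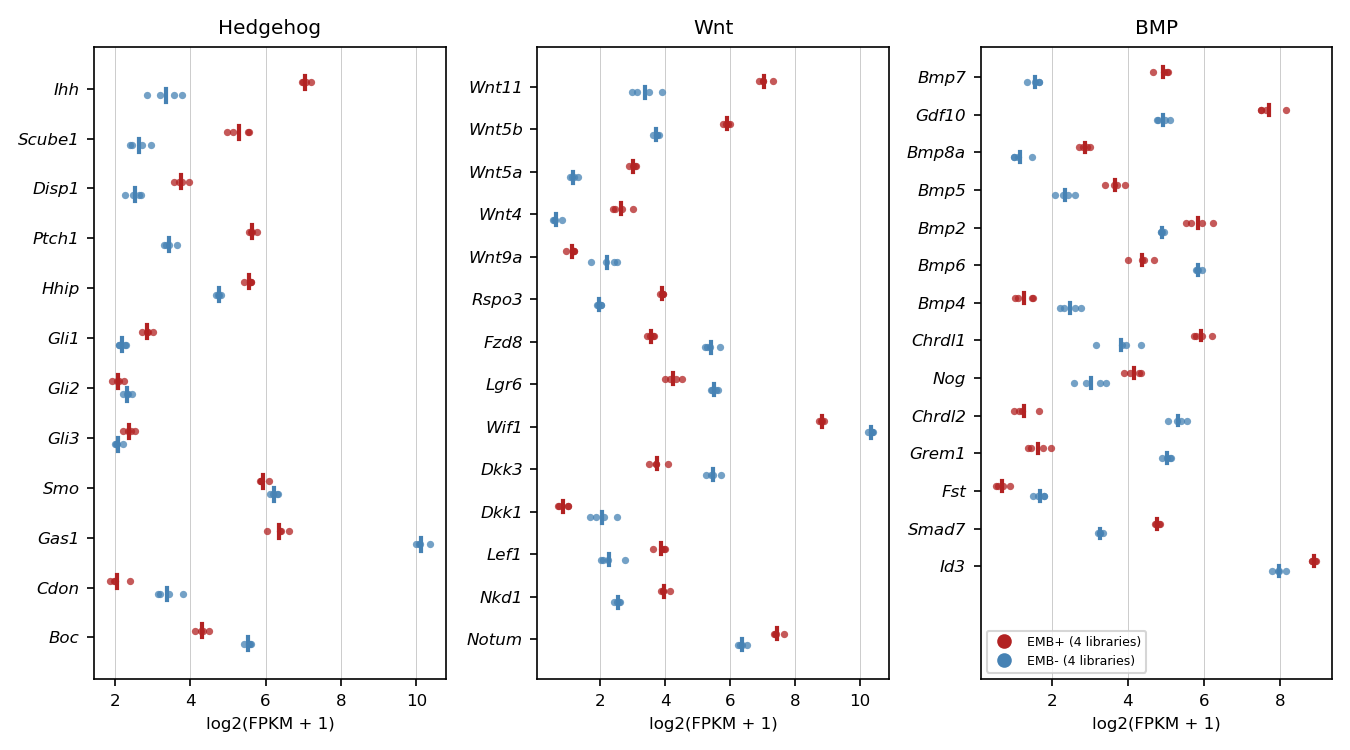
Level of each library (points, log2(FPKM + 1), x axis) for genes of the Hedgehog, Wnt and BMP pathways, with group means as ticks, EMB+ in red and EMB- in blue. Ihh (132.5 against 9.49 FPKM), Wnt11 and Bmp7 lie to the right in EMB+ cells, and Gas1, Wif1, Chrdl2 and Grem1 lie to the right in EMB- cells.

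BMP ligands and receptors numbered 15, with 5 higher and 3 lower. After Bmp7 came Gdf10 with 199, 285, 181 and 182 FPKM in the EMB+ libraries and 30.55, 33.8, 26.9 and 26.5 FPKM in the EMB- libraries (2.79, SE 0.17, adjusted p = 4.9e-11), Bmp8a (6.285 ± 0.638 against 1.24 ± 0.381 FPKM, 1.71, SE 0.22) and Bmp5 (11.8 ± 1.95 against 4.13 ± 0.762 FPKM, 1.32, SE 0.18). Bmp6, which is made by hypertrophic chondrocytes, had 20.4, 24.7, 19.8 and 15.0 FPKM in the EMB+ libraries and 56.2, 54.7, 60.6 and 55.9 FPKM in the EMB- libraries and was lower (-1.48, SE 0.14, adjusted p = 3.4e-09), as was Bmp4 (1.44 ± 0.407 against 4.63 ± 0.982 FPKM, -1.21, SE 0.17). Bmp2 had 57.6 ± 13.3 against 28.7 ± 0.882 FPKM, a difference of 0.95 (SE 0.16, adjusted p = 0.011). Its call was lost without EMB+ replicate 2 (0.065). Antagonists and response genes split evenly, 6 higher and 6 lower of 19. The antagonists Chrdl1 (60.6 ± 9.46 against 13.7 ± 4.63 FPKM, 2.11, SE 0.26), Bmper (7.63 ± 1.135 against 1.56 ± 0.298 FPKM, 1.75, SE 0.17) and Nog, noggin (16.9 ± 2.505 against 7.44 ± 2.175 FPKM, 1.11, SE 0.17), were higher. Chrdl2, Grem1 and Fst, follistatin (0.603 ± 0.177 against 2.21 ± 0.312 FPKM), were lower. The response genes Smad7 and Id3 had 26.5 ± 1.11 against 8.67 ± 0.387 FPKM (1.51, SE 0.16) and 477 ± 17.7 against 252 ± 27.9 FPKM (0.92, SE 0.16).

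TGF-beta genes were higher in 4 (19.0%) and lower in 6 (28.6%) of 21 cases, against 13.7% and 7.8% of all 10595 genes. Inhba, an activin subunit, had 2.999, 1.17, 3.39 and 2.12 FPKM in the EMB+ libraries and 26.8, 16.2, 23.45 and 28.6 FPKM in the EMB- libraries (-2.88, SE 0.26, adjusted p = 3.2e-09). Ltbp1, which holds latent TGF-beta in the matrix, was lower (-2.12, SE 0.22) and Ltbp2 higher (1.09, SE 0.19). The ligands Tgfb2 and Tgfb1 were higher (1.30, SE 0.15 and 0.88, SE 0.13), and Tgfb3 was lower (-0.52, SE 0.12). In the FGF list, Fgfr3, the receptor that restrains chondrocyte division, had 171.6, 181, 167.1 and 164.6 FPKM in the EMB+ libraries and 54.65, 44.65, 50.05 and 34.9 FPKM in the EMB- libraries (1.89, SE 0.20, adjusted p = 2.9e-06). Fgfr1 and Fgfr2 had 59.2 ± 5.13 against 60.5 ± 2.13 FPKM and 70.0 ± 4.38 against 92.1 ± 9.13 FPKM and were not called. With only the 8 compared libraries in the fit Fgfr2 was called lower (adjusted p = 0.0021). Etv4, a transcription factor induced by FGF, had 1.19 ± 0.256 against 4.915 ± 1.16 FPKM (-1.42, SE 0.19). The 5 genes of the IGF list that were lower encode IGF binding proteins, with Igfbp6 (above), Igfbp4 at 53.3 ± 10.4 against 157.5 ± 24.2 FPKM (-1.55, SE 0.18), Igfbp3 at 4.17 ± 2.59 against 12.9 ± 3.87 FPKM (-1.50, SE 0.26), Igfbp5 at 6.46 ± 1.015 against 14.2 ± 1.96 FPKM (-1.03, SE 0.22) and Igfbp7 at 1005 ± 116 against 1634 ± 117 FPKM (-0.70, SE 0.17). Of 10 Notch genes 1 was higher, Hey1 (1.77 ± 0.407 against 0.663 ± 0.174 FPKM, 0.73, SE 0.15), and none lower. This share of 10.0% higher was near the 13.7% over all 10595 genes.

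Factors that act on blood vessels, osteoclasts and axons were also tabulated. Nrp1, a receptor for VEGF and semaphorins, had 10.9, 11.6, 13.1 and 12.8 FPKM in the EMB+ libraries and 1.47, 2.04, 1.86 and 1.58 FPKM in the EMB- libraries (2.26, SE 0.12, adjusted p = 1.0e-11), and Angptl2, a secreted angiopoietin-like protein, 402 ± 43.3 against 160.5 ± 11.0 FPKM (1.32, SE 0.14). Tnfsf11, which encodes the osteoclast factor RANKL, had 4.34, 4.87, 4.715 and 4.23 FPKM in the EMB+ libraries and 0.357, 1.05, 0.2865 and 0.310 FPKM in the EMB- libraries, a difference of 1.91 (SE 0.18, adjusted p = 1.0e-07). Its decoy receptor Tnfrsf11b had 51.2 ± 5.61 against 33.7 ± 3.30 FPKM and was not called. Cxcl12, a niche chemokine, had 38.8 ± 5.04 against 25.8 ± 2.88 FPKM and was not called either. Of 41 guidance genes, 10 were higher (24.4%) and 9 lower (22.0%), against 13.7% and 7.8% of all 10595 genes. The netrin receptor Unc5c had 12.6 ± 1.97 against 1.49 ± 0.503 FPKM (2.46, SE 0.26) and the ephrin Efnb1 23.9 ± 1.32 against 6.755 ± 1.30 FPKM (1.70, SE 0.14). Sema3b, a secreted semaphorin, had 4.55 ± 1.12 against 32.5 ± 2.82 FPKM (-2.61, SE 0.19) and Ntn1, netrin 1, 2.14 ± 0.730 against 10.03 ± 1.65 FPKM (-1.83, SE 0.26). Among integrin chains, Itga8 (7.43 ± 1.19 against 0.875 ± 0.174 FPKM), Itgb4 (2.66 ± 0.669 against 0.317 ± 0.140 FPKM) and Itga6 (14.8 ± 1.025 against 6.25 ± 0.826 FPKM) were higher, by 2.16, 1.46 and 1.13, and Itga5, part of the fibronectin receptor, lower, with 20.95, 20.1, 14.7 and 16.4 FPKM in the EMB+ libraries and 80.8, 67.0, 60.3 and 61.0 FPKM in the EMB- libraries (-1.85, SE 0.17, adjusted p = 6.0e-09).

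Cell division genes were higher in EMB+ cells for most of the mitosis list. Of 41 mitosis genes 38 were higher and none lower, with a median of 1.69, and their summed level was 345 to 395 in the EMB+ and 67.7 to 88.1 in the EMB- libraries, in FPKM. Top2a, the topoisomerase of chromosome segregation, had 16.0, 16.2, 16.4 and 14.9 FPKM in the EMB+ libraries and 2.56, 2.80, 1.85 and 1.31 FPKM in the EMB- libraries (2.46, SE 0.21, adjusted p = 3.3e-08). Cdk1, the mitotic kinase, had 25.6, 24.9, 27.1 and 29.3 FPKM in the EMB+ libraries and 5.02, 6.89, 3.74 and 5.73 FPKM in the EMB- libraries (2.15, SE 0.21, adjusted p = 3.9e-07), and Cdc20, the activator of anaphase, 19.2, 19.6, 18.5 and 15.9 FPKM in the EMB+ libraries and 3.64, 3.35, 1.91 and 3.67 FPKM in the EMB- libraries (2.24, SE 0.19, adjusted p = 3.0e-08). In all 3 genes every EMB+ library was above every EMB- library. Birc5 (survivin), Plk1 and Ccnb2 (cyclin B2) differed by 2.21 (SE 0.18), 2.13 (SE 0.23) and 2.13 (SE 0.20). DNA replication genes were higher in 26 of 39 cases and lower in none (median 1.01), among them Tk1, thymidine kinase (12.9 ± 1.61 against 2.36 ± 0.595 FPKM, 2.06, SE 0.18), the ribonucleotide reductase subunit Rrm2 (29.9 ± 4.03 against 10.01 ± 1.91 FPKM, 1.50, SE 0.25) and the helicase subunits Mcm5 and Mcm2 (1.49, SE 0.23 and 1.48, SE 0.26). The helicase subunit Mcm6 stood out with 29.0, 29.8, 24.5 and 25.55 FPKM in the EMB+ libraries and 35.8, 34.5, 31.2 and 33.8 FPKM in the EMB- libraries. All its EMB+ libraries were below the EMB- libraries, and it was not called (adjusted p = 0.2), but it was called lower without long bone EMB- replicate 4 in the fit (adjusted p = 0.05).

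Regulators of the G1 phase were divided between D cyclins. Ccnd1, cyclin D1, had 18.8, 17.5, 20.3 and 21.2 FPKM in the EMB+ libraries and 2.01, 3.18, 4.825 and 2.14 FPKM in the EMB- libraries, a 6.40-fold difference (2.39, SE 0.27, adjusted p = 1.0e-06). Ccnd2, cyclin D2, had 96.4, 64.0, 57.6 and 81.6 FPKM in the EMB+ libraries and 132, 118, 127 and 131 FPKM in the EMB- libraries, the reverse (-0.78, SE 0.22, adjusted p = 0.0053). Neither had overlapping groups. The cyclin D partners Cdk6 and Cdk4 were higher (1.55, SE 0.28 and 0.95, SE 0.13), and so were their inhibitors Cdkn2c and Cdkn2d (1.25, SE 0.16 and 1.34, SE 0.16). Cdkn1a, the p21 inhibitor, had 192.4 ± 26.2 against 212 ± 33.3 FPKM with overlapping groups and was not called. Over the list, 8 of 19 were higher and 1 lower. Linker histones Hist1h1d and Hist1h1b, which are made in S phase, differed by 1.62 (SE 0.29) and 1.45 (SE 0.29).

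Promoters of the mitosis genes are shown because these genes moved together. Genes of late division are known to share CCAAT boxes, bound by NF-Y, and the cell cycle homology region (CHR), TTTGAA. The windows below are the 120 bases before the RefSeq transcription start (GRCm38.p6), read 5′ to 3′ on the strand of the gene, with CCAAT and TTTGAA on either strand in capitals (ATTGG and TTCAAA when on the other strand). Cdk1, Cdc20 and Top2a hold both motifs, and Birc5 holds neither in this stretch.
Cdk1 (chr10:69352913-69353032, minus strand): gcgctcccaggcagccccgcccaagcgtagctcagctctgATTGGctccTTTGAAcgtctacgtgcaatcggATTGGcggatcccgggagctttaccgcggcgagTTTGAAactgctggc
Cdc20 (chr4:118437344-118437463, minus strand): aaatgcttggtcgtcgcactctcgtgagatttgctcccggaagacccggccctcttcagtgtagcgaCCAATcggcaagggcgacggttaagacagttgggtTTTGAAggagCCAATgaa
Top2a (chr11:99024190-99024309, minus strand): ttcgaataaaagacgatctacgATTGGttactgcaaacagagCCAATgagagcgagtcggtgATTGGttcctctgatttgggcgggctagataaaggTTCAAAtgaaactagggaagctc
Birc5 (chr11:117849117-117849236, plus strand): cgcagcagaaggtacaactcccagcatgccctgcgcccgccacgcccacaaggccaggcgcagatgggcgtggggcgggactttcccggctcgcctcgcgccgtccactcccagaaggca
The nearest TTTGAA began 15, 18 and 23 bases before the start in Cdk1, Cdc20 and Top2a. Over the 250 bases before the start, CCAAT was found in 80.6% of 36 windows of the mitosis genes (34 genes matched), in 55.0% of 40 windows of the replication genes, and in 33.8% of all 32851 windows of that length and 35.1% of those of the 10595 genes. TTTGAA was found in 36.1%, 15.0%, 16.0% and 10.4%, and both motifs together in 33.3% of mitosis windows and 5.55% of all. The E2F motifs TTGGCGC and TTCCCGC were found in 30.0% of replication windows, 11.1% of mitosis windows and 5.62% of all windows. The RUNX motifs TGTGGTT and TGCGGTT were found in 4 of 21 windows of the hypertrophy genes (19.0%) and in 5.59% of all. These shares describe letters in the windows and carry no test.

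Metabolic genes differed by pathway. Of 20 cholesterol synthesis genes 16 were higher and none lower (median 0.93). Fdps, which encodes farnesyl diphosphate synthase, had 72.2, 55.95, 49.9 and 56.45 FPKM in the EMB+ libraries and 21.9, 14.5, 15.7 and 14.15 FPKM in the EMB- libraries (1.77, SE 0.17, adjusted p = 7.5e-08). The groups of Fdps did not overlap. Sqle, which encodes squalene epoxidase, differed by 1.30 (SE 0.17). Of 25 glycolysis and hypoxia genes, 7 were lower, including Bnip3, a mitophagy gene induced by hypoxia, with 93.3, 79.3, 79.1 and 73.05 FPKM in the EMB+ libraries and 225, 174.7, 169.2 and 193 FPKM in the EMB- libraries (-1.22, SE 0.16, adjusted p = 1.8e-06), and the glucose transporter Slc2a1 (23.7 ± 3.06 against 39.8 ± 6.35 FPKM, -0.72, SE 0.16). The gene higher was Hk2 (0.82, SE 0.19), a call lost without EMB+ replicate 1 (0.073), EMB+ replicate 2 (0.078), EMB+ replicate 4 (0.066), EMB- replicate 2 (0.11) and EMB- replicate 3 (0.064). Gapdh and Ldha had overlapping groups. Among partners of embigin and lactate transporters, Slc16a1, which encodes the transporter MCT1 that embigin can chaperone, had 31.9, 19.8, 22.5 and 19.4 FPKM in the EMB+ libraries and 10.8, 9.23, 9.12 and 7.92 FPKM in the EMB- libraries (1.23, SE 0.23, adjusted p = 0.0076). Slc16a3, which encodes the lactate exporter MCT4, had 40.1, 27.1, 27.2 and 27.45 FPKM in the EMB+ libraries and 87.9, 58.4, 56.7 and 68.5 FPKM in the EMB- libraries, the reverse (-1.13, SE 0.19, adjusted p = 3.4e-05). Bsg, which encodes basigin, the relative of embigin, had 330.2 ± 34.25 against 411 ± 42.2 FPKM, a difference of -0.31 (SE 0.13, adjusted p = 0.045), and lost its call without EMB+ replicate 1 (0.088), EMB+ replicate 2 (0.14), EMB+ replicate 3 (0.059), EMB- replicate 1 (0.06), EMB- replicate 3 (0.066) and EMB- replicate 4 (0.15).

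Respiratory chain subunits showed 4 of 78 higher and 1 lower. As deposited 54 of them passed higher (45.3% of all 10595 genes did), and their median was 0.53 as deposited and 0.15 after scaling. Without long bone EMB- replicate 4 in the fit, 19 were called higher, and with only the 8 compared libraries 21. Ndufa4 had 174.7, 142, 178 and 182 FPKM in the EMB+ libraries and 62.1, 61.2, 73.1 and 64.55 FPKM in the EMB- libraries (1.36, SE 0.14, adjusted p = 9.3e-07). Cox4i2, a subunit isoform induced by low oxygen, had 47.5, 38.4, 36.7 and 49.9 FPKM in the EMB+ libraries and 141, 116, 133 and 192.5 FPKM in the EMB- libraries (-1.72, SE 0.27, adjusted p = 1.3e-05), the opposite order. No cytosolic ribosomal protein gene of 79 was called, with a median of 0.28 as deposited and -0.11 after scaling. As deposited 8 of them passed, and 1 was called without long bone EMB- replicate 4.

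Transcription factors of axial identity also differed. Of 11 such genes, 6 were higher and 4 lower. Zic4, which neighbours Zic1, had 5.95, 4.13, 6.42 and 5.82 FPKM in the EMB+ libraries and 1.50, 0.797, 1.47 and 1.12 FPKM in the EMB- libraries (1.57, SE 0.13, adjusted p = 2.1e-08). Uncx, a sclerotome homeobox factor, and Nkx6-1 differed by 1.39 (SE 0.13) and 1.03 (SE 0.15). Pax1 and Pax9, which act together in the sclerotome, were lower, with 77.4, 79.5, 70.15 and 78.7 FPKM in the EMB+ libraries and 145, 123, 126 and 128 FPKM in the EMB- libraries for Pax1 (-0.76, SE 0.15, adjusted p = 1.8e-04) and 1.815 ± 0.314 against 6.355 ± 0.475 FPKM for Pax9 (-1.39, SE 0.15). Meox1 had 0.144 ± 0.09725 against 3.23 ± 0.298 FPKM (-1.89, SE 0.15). Of 24 Hox genes 2 were higher (8.33%) and 6 lower (25.0%), against 13.7% and 7.8% of all 10595 genes. The median of the Hox genes was 0.00 as deposited and -0.33 after scaling. Those higher were Hoxb2 (22.1 ± 1.415 against 10.1 ± 1.92 FPKM, 1.07, SE 0.23) and Hoxa6 (2.51 ± 0.503 against 1.01 ± 0.411 FPKM, 0.82, SE 0.18), and the calls were lost without EMB+ replicate 3 (0.053), EMB+ replicate 4 (0.059), EMB- replicate 3 (0.061) and EMB- replicate 4 (0.088) for Hoxb2 and without EMB+ replicate 2 (0.052) and EMB- replicate 4 (0.087) for Hoxa6 (adjusted p). Hoxd9 and Hoxa11 were lower, with 5.59 ± 0.669 against 11.45 ± 1.12 FPKM and 1.74 ± 0.539 against 3.96 ± 0.2305 FPKM (-0.92, SE 0.22 and -0.87, SE 0.21), as was Hoxd10 (0.578 ± 0.157 against 1.66 ± 0.3655 FPKM). Other abundant Hox genes, Hoxc8, Hoxb7 and Hoxa7, had 17.7 ± 0.784 against 19.1 ± 0.838 FPKM, 18.9 ± 1.80 against 16.2 ± 3.003 FPKM and 16.0 ± 1.535 against 15.75 ± 1.26 FPKM with overlapping groups. Of 15 imprinted growth genes, 10 were higher and 1, Nnat, lower. Peg3 had 148, 124, 127 and 124 FPKM in the EMB+ libraries and 45.3, 47.8, 42.8 and 36.85 FPKM in the EMB- libraries (1.58, SE 0.22, adjusted p = 1.8e-04), Grb10, an inhibitor of insulin signals, 159 ± 20.85 against 54.0 ± 9.64 FPKM (1.55, SE 0.20), and Phlda2 5.30 ± 2.73 against 0.453 ± 0.0960 FPKM (2.02, SE 0.24). Igf2 had 691 ± 52.7 against 337 ± 35.1 FPKM, a difference of 1.04 (SE 0.24, adjusted p = 0.031), lost without EMB+ replicate 2 (0.052), EMB+ replicate 3 (0.085), EMB+ replicate 4 (0.053), EMB- replicate 1 (0.07), EMB- replicate 2 (0.07) and EMB- replicate 4 (0.063).

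Markers of other cell types were present in part, several differed between the groups, and their part in the differences was not tested. Summed over the 8 erythroid genes of 15 listed that reached the entry limit, the level was 200.0 to 555 in the EMB+ and 270.0 to 981 in the EMB- libraries, and none was called, but 5 were lower without EMB- replicate 1. The neutrophil and monocyte list, with 7 of 17 genes at the limit, summed to 20.4 to 258 in the EMB+ and 43.2 to 112 in the EMB- libraries, with none called. The highest of these sums was in EMB+ replicate 3, where S100a8 reached 98.97 FPKM against 3.96 to 60.3 in the other EMB+ libraries. Of 14 endothelial genes 12 were below the limit, including the defining Cdh5 (at most 0.475 FPKM), and the other 2 summed to 33.8 to 50.8 in the EMB+ and 62.0 to 65.6 in the EMB- libraries. Of these, Ramp2, which modulates peptide hormone receptors, was lower, with 35.0 ± 4.29 against 61.5 ± 1.33 FPKM. Of 16 skeletal muscle genes 3 reached the limit, with sums of 86.4 to 109 in the EMB+ and 33.9 to 48.7 in the EMB- libraries, mainly from Tnnt3 and Tnni2. The summed level of the list was higher in EMB+ cells, but it includes Tnnt3 itself and is no separate evidence on that gene. The muscle factors Myod1 and Myog were listed at 0 in all EMB+ libraries and reached at most 1.15 and 6.17 FPKM in the EMB- libraries. In the lymphoid list, 7 of 15 genes reached the limit, with sums of 16.1 to 24.8 in the EMB+ and 17.1 to 27.3 in the EMB- libraries. The MHC class II genes Cd74 and H2-Aa were higher (5.35 ± 1.58 against 0.742 ± 0.394 FPKM and 2.91 ± 1.19 against 0.372 ± 0.334 FPKM) and H2-Ab1 lower (3.59 ± 1.86 against 13.5 ± 3.59 FPKM), while Cd3e and Cd3g were listed at 0 in all 8 libraries. Of 11 osteoclast genes 5 reached the limit, with sums of 104 to 118 in the EMB+ and 64.7 to 73.6 in the EMB- libraries. Mmp9 was called higher, while Acp5, Ctsk and Itgb3 had 3.34 ± 0.949 against 1.36 ± 0.322 FPKM, 33.1 ± 2.49 against 33.9 ± 4.09 FPKM and 1.06 ± 0.0536 against 1.01 ± 0.523 FPKM and were not called. With only the 8 compared libraries in the fit Acp5 was called higher (adjusted p = 0.017). Calcr, the calcitonin receptor of osteoclasts, was listed at 0 in all EMB+ libraries. Of 12 pericyte and smooth muscle genes 3 reached the limit, where Cspg4 was higher (134 ± 4.83 against 54.7 ± 3.09 FPKM) and Acta2 lower (3.75 ± 0.244 against 9.76 ± 1.22 FPKM). Of 10 notochord genes 3 did, with Foxa2 and Cd24a higher (15.3 ± 4.08 against 4.46 ± 1.585 FPKM and 203 ± 15.5 against 84.9 ± 3.63 FPKM), while Shh and Noto were listed at 0 in all 8 libraries. The immediate early genes Fos, Egr1 and Junb, which respond to cell dissociation, had 3375 ± 200.2 against 3332 ± 116 FPKM, 2135 ± 242 against 1983 ± 136 FPKM and 1983 ± 138 against 1581 ± 61.8 FPKM and were not called.

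The same EMB difference was taken in 2 other sources of the series, each with 4 EMB+ and 4 EMB- libraries, and the differences were compared in 1 fit. These were GFP- cells of the vertebrae and GFP- cells of femur and tibia (long bone), of the same sex, age, genotype label and surface gate. Over all 11768 genes tested, the EMB+ minus EMB- difference of vertebral GFP+ cells was more positive than that of vertebral GFP- cells for 364 genes (3.09%) and more negative for 160 (1.36%). Against long bone cells it was more positive for 1647 genes (14.0%) and more negative for 654 (5.56%). These counts share the GFP+ libraries. The vertebral GFP- EMB+ group is the one whose titles and cell type labels disagree, and Emb was at 44.4 to 55.3 FPKM in its 4 libraries, against 0.855 to 1.32 FPKM in the vertebral GFP- EMB- libraries. Zic1 was at 0.0 to 0.108 FPKM in the same 4 libraries, against 0.349 to 2.39 FPKM in the vertebral GFP+ libraries. In both RNAs these libraries went with the cell type label, and no further test of the labels was made. All gaps to vertebral GFP- cells rest on the group with disagreeing labels. Without long bone EMB- replicate 4, which stood apart from its group in scaling (factor 1.15 against 0.994 to 1.01), 858 genes differed from vertebral GFP- and 3106 from long bone cells. Of the 24 genes with the largest differences named above, 6 differed from vertebral GFP- cells and 21 from long bone cells. Without that library the counts were 10 and 21. Emb, Wnt11, Bmp7 and Chst5 then passed against vertebral GFP- cells and Panx3 against long bone cells (0.72, adjusted p = 0.036), and R3hdml no longer passed against long bone cells (0.75, adjusted p = 0.069). These genes were chosen for their difference in vertebral GFP+ cells, which leans the comparison toward a larger difference there, so the values are a description.

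Against vertebral GFP- cells, Tnmd and Thbs4 had the widest gaps of these 24 genes. Tnmd differed by -3.70 between EMB+ and EMB- cells in the GFP+ and by -1.82 in the GFP- lineage, which are -1.88 (SE 0.30, adjusted p = 0.00014) apart. For Thbs4 the values were -3.69 and -1.17, which are -2.52 (SE 0.24, adjusted p = 2.6e-07) apart. Both tendon genes were lower in EMB+ cells by a larger margin in the GFP+ lineage. For Arsi, Ihh, Ppa1 and Panx3 the EMB difference was smaller in GFP+ cells. That of Ihh was 3.71 against 4.83, a gap of -1.12 (SE 0.29, adjusted p = 0.021), and that of Panx3 3.28 against 4.29, a gap of -1.01 (SE 0.23, adjusted p = 0.012). Arsi gave a gap of -0.80 (SE 0.18, adjusted p = 0.0072) and Ppa1 of -1.01 (SE 0.26, adjusted p = 0.017). The EMB- means of Arsi, Ihh, Ppa1 and Panx3 were higher in GFP+ than in GFP- cells. They were 4.96 against 1.65, 9.49 against 4.8, 132 against 75.4 and 13.0 against 5.72 FPKM. The EMB+ means went both ways, at 159 against 124, 132 against 159, 1390 against 1590 and 134 against 130 FPKM.

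Against long bone cells, the gap passed for all 12 of the genes lower in EMB+ cells and for 9 of the 12 higher ones. Chst5, Abi3bp and Smoc1 differed by -0.14, -0.08 and -0.07 between EMB+ and EMB- long bone cells, and the gaps to vertebral GFP+ cells were -3.45 (SE 0.22, adjusted p = 1.6e-11), -3.75 (SE 0.25, adjusted p = 3e-11) and -3.59 (SE 0.33, adjusted p = 6.6e-09). In long bone EMB+ against EMB- cells, Chst5 was low in both (4.01 against 4.68 FPKM). Abi3bp (34.6 against 35.4) and Smoc1 (54.3 against 56.1) were present in both. Sbsn (1.34 against 3.84) and Dmkn (0.134 against 0.76) were also low in both. Cilp gave -0.70 in long bone, a gap of -4.07 (SE 0.38, adjusted p = 7.9e-09). Among genes higher in EMB+ cells, F13a1 gave -0.57 in long bone, a gap of 4.24 (SE 0.33, adjusted p = 6.2e-09), and Tnnt3 0.57, a gap of 2.94 (SE 0.36, adjusted p = 1.6e-06). Col10a1, Ppa1 and Panx3 were the 3 of these 24 genes whose gap to long bone cells did not pass with all libraries, at 1.43 (SE 0.47, adjusted p = 0.083), 0.53 (SE 0.26, adjusted p = 0.54) and 0.53 (SE 0.23, adjusted p = 0.51).

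**Figure D5:**
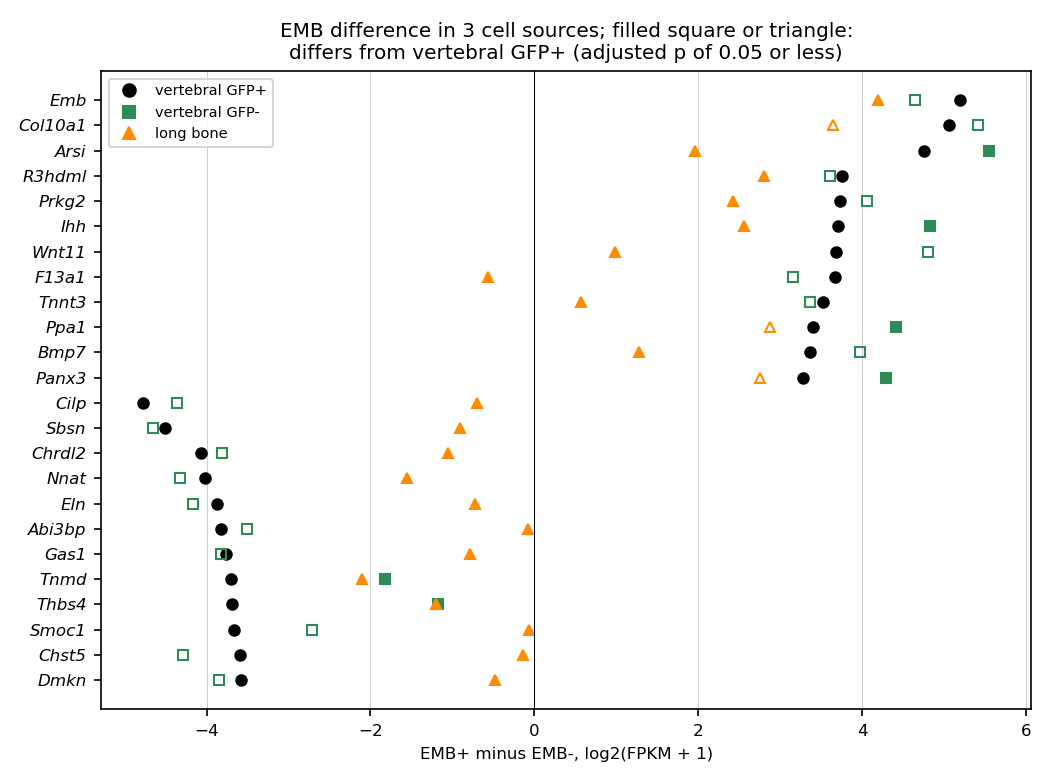
EMB difference (log2 scale, x axis) of the 24 named genes in vertebral GFP+, vertebral GFP- and long bone cells, with filled symbols where the difference departs from that in vertebral GFP+ cells at an adjusted p of 0.05 or less. Filled symbols number 6 for vertebral GFP- and 21 for long bone cells, with most long bone symbols nearer to 0.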

How the data were processed

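Sorted cells of 24 libraries in 6 groups of 4 were sequenced, and 8 libraries are compared here. The authors deposited FPKM values per gene. Per the submitters' processing notes, bcl2fastq 2.19, STAR 2.5.2, Cufflinks 2.1.1 and the build GRCm38 were used. From the table, 46 entries with repeated identifiers, 56 with repeated symbols and 3 genes with failed estimates were left out.

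Groups followed the cell type labels. log2(FPKM + 1) was fitted with limma 3.58.1 in R 4.3.3 (trend and robust moderation) on all 24 libraries, 18 residual degrees of freedom, for the 11768 genes at 1 FPKM or more in 4 or more libraries, with Benjamini-Hochberg adjustment. The fit was made as deposited and after median-ratio scaling on the 4842 genes at 5 FPKM or more in every library. The test was run on made data with known changes, where it recovered 96 of 100 2-fold and 100 of 100 4-fold changes. It also called 8 unchanged genes. The made data held no shift of the median gene between the compared groups, so they cannot check the choice of scaling.

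The members and gene lists were chosen with earlier results of these data known. Named were the 12 called genes per direction with the largest difference. They were taken from genes whose groups did not overlap and whose higher mean was 5 FPKM or more, leaving out predicted genes. From each list, the genes with the largest differences were named. Other scalings, pseudocounts, filters, weights, blocks and sets of libraries were tried. Promoter windows are from RefSeq. Some genes of the lists are not reported here and were left out of the counts of their list.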

Additional observations from a re-analysis of the deposited data

Results flagged for a closer look

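Single libraries stood apart from the other 3 of their group for some genes of the text. A library counted as apart where its gap to the nearest other, divided by the range of the group, was above Dixon's 95% critical value for 4 samples. Of 554 groups of 4 libraries, 29 held such a library, and chance gives about 1 in 20, or 28. EMB+ replicate 1 was above the rest of its group in Hspa5 at 507 FPKM against 375 to 392, Papss2 at 247 FPKM against 196 to 204, Peg3 at 148 FPKM against 124 to 127, Slc16a3 at 40.1 FPKM against 27.1 to 27.4 and Vegfa at 15.2 FPKM against 9.71 to 10.1. It was below the rest in Eng at 1.07 FPKM against 1.39 to 1.45 and Sfrp5 at 69.8 FPKM against 94.5 to 97.4. EMB+ replicate 2 was above the rest of its group in F13a1 at 136 FPKM against 75.6 to 80.6, Junb at 2190 FPKM against 1890 to 1940 and Smo at 67 FPKM against 56.5 to 58.3. It was below the rest in Bglap at 271 FPKM against 425 to 453. EMB+ replicate 3 was above the rest of its group in Igfbp3 at 8.03 FPKM against 2.5 to 3.25 and Mepe at 6.39 FPKM against 1.93 to 2.59. EMB+ replicate 4 was above the rest of its group in Scx at 7.23 FPKM against 3.93 to 4.35. EMB- replicate 1 was above the rest of its group in Hspa5 at 268 FPKM against 192.3 to 196, Papss2 at 98.2 FPKM against 75.6 to 78.2, Slc26a2 at 44 FPKM against 34.1 to 35.6, Tnfrsf11b at 38.6 FPKM against 31.8 to 32.3 and Wnt4 at 0.748 FPKM against 0.463 to 0.502. It was below the rest in Runx1 at 12.5 FPKM against 14.8 to 15 and Tspan13 at 16.6 FPKM against 19.5 to 20.1. EMB- replicate 2 was above the rest of its group in Tnfsf11 at 1.05 FPKM against 0.287 to 0.357. It was below the rest in 1520401A03Rik at 413 FPKM against 549 to 575. EMB- replicate 3 was above the rest of its group in Igfbp3 at 18.7 FPKM against 10.3 to 11.6 and Rspo2 at 3.66 FPKM against 1.87 to 1.93. EMB- replicate 4 was above the rest of its group in Nnat at 76.8 FPKM against 48.2 to 52.8. It was below the rest in Arsi at 3.9 FPKM against 5.25 to 5.4, Bmper at 1.11 FPKM against 1.67 to 1.75 and Col3a1 at 862 FPKM against 1120 to 1150. Hspa5 and Papss2 had replicate 1 highest in both groups, and Igfbp3 replicate 3. All these values were kept.

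The EMB difference of 6 of the 24 genes with the largest differences was unlike that in vertebral GFP- cells in the limma fit. The gaps, vertebral GFP+ minus vertebral GFP- on the log2 scale, were Arsi -0.80, Ihh -1.12, Ppa1 -1.01, Panx3 -1.01, Tnmd -1.88 and Thbs4 -2.52 (adjusted p = 2.6e-07 to 0.021). For 21 genes it was unlike that in long bone cells. The positive gaps, vertebral GFP+ minus long bone, were Emb 0.99, Arsi 2.79, R3hdml 0.95, Prkg2 1.31, Ihh 1.15, Wnt11 2.70, F13a1 4.24, Tnnt3 2.94 and Bmp7 2.08. The negative gaps were Cilp -4.07, Sbsn -3.60, Chrdl2 -3.03, Nnat -2.47, Eln -3.15, Abi3bp -3.75, Gas1 -2.98, Tnmd -1.60, Thbs4 -2.49, Smoc1 -3.59, Chst5 -3.45 and Dmkn -3.10. Adjusted p for these 21 genes ran from 1.6e-11 to 0.042.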

How the results depend on the processing

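No gene was called in opposite directions under any alternative, and 1584 (with fewer genes tested under the FPKM limit of 5) to 2278 genes kept the call and its direction. Scaling moved the counts of genes higher, lower and departing from long bone cells. As deposited only, 4803 genes were higher and 3594 departed from long bone cells. With median-ratio scaling only 1592 were lower, and with quantile normalization 1486. Under the FPKM limit of 5, 535 were lower. With library weights 1155 genes departed from vertebral GFP- cells, and without long bone EMB- replicate 4, 858 did. The cause of these last changes was not tested. Leaving out each compared library in turn gave 1205 to 1360 genes higher, 753 to 798 lower, 446 to 479 departing from vertebral GFP- and 2070 to 2184 from long bone cells.

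Replicate numbers were not taken as pairs, since the labels give no shared source and 1 of the 4 correlations was not above 0.1. Same-numbered EMB+ and EMB- libraries had deviations correlated at 0.278, 0.097, 0.142 and 0.269, while pairs of different numbers ran from -0.239 to 0.126. EMB+ replicate 2 correlated better with EMB- replicate 1 (0.126). A fit of the 8 libraries called 2221 genes higher and 1073 lower with the replicate block, and 1897 and 971 without it. The block called 13 genes of the text that were not called above. Higher were Gli1 (adjusted p = 0.042), Hhip (0.00034), Sox9 (0.011), Serpinh1 (0.0037), Acp5 (0.013) and Tnni2 (0.0076). Lower were Smo (0.0012), Fgfr2 (0.0002), Col6a2 (0.00067), Ibsp (0.00094), Mcm6 (0.0021), Sfrp5 (0.0068) and Cdkn1a (0.038). Without the block, the fit of the 8 libraries called all of these but Serpinh1, Tnni2 and Cdkn1a.

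Of 242 called genes of the text, 8 lost the call without some compared library (Bmp2, Bsg, Col2a1, Hk2, Hoxa6, Hoxb2, Igf2 and Zic1) and none changed sign. Under some other setting 7 lost the call (Bsg, Col2a1, Hk2, Hoxa6, Igf2, Sparc and Zic1). Under quantile normalization Sparc and Col2a1 had a difference of 0.00, as the most abundant RNAs take the same rank in each library. Of the genes not called, 21 were called under some alternative. Read depth is unknown, which limits genes near 1 FPKM.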

Other observations

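The genes of these 2 paragraphs lie outside the lists and were chosen after their values were seen, so they are a description. Among genes higher in EMB+ cells, Tspan13, a tetraspanin of the cell membrane, had 166.8, 217, 199 and 188.5 FPKM in the EMB+ libraries and 16.6, 20.05, 19.5 and 19.95 FPKM in the EMB- libraries (3.27, SE 0.12, adjusted p = 1.9e-15). Fxyd2, a regulatory subunit of the sodium pump, had 199 ± 24.8 against 20.0 ± 5.33 FPKM (3.28, SE 0.35), and Pla2g5, a secreted phospholipase, 104 ± 18.6 against 11.4 ± 3.06 FPKM (3.10, SE 0.19). None of these groups overlapped. F5, which encodes coagulation factor V, had 16.0, 19.6, 14.95 and 11.2 FPKM in the EMB+ libraries and 0.884, 1.07, 1.11 and 0.712 FPKM in the EMB- libraries (3.06, SE 0.19, adjusted p = 2.9e-11), near the entry limit in EMB- cells. Nid2, a basement membrane nidogen, had 312, 305, 287.5 and 254 FPKM in the EMB+ libraries and 57.55, 48.4, 45.9 and 38.1 FPKM in the EMB- libraries (2.59, SE 0.22, adjusted p = 4.8e-08), and Gpc1, a heparan sulfate proteoglycan of the cell surface, 234 ± 14.1 against 45.6 ± 4.34 FPKM (2.34, SE 0.13). Nid2 and Gpc1 were abundant in both groups. Tfrc, the transferrin receptor, had 76.2 ± 3.88 against 15.1 ± 2.64 FPKM (2.28, SE 0.31, adjusted p = 5.9e-05).

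The carbonic anhydrase family went in both directions. Car12, a membrane-bound enzyme, had 26.4, 13.0, 16.3 and 15.9 FPKM in the EMB+ libraries and 2.81, 1.33, 2.06 and 1.525 FPKM in the EMB- libraries (2.67, SE 0.22, adjusted p = 5.1e-09), and Car8, a member without catalytic activity, 17.1 ± 1.92 against 2.12 ± 0.276 FPKM (2.53, SE 0.12), both higher in EMB+ cells. Car9, the membrane-bound enzyme induced by low oxygen, had 0.688, 0.694, 1.13 and 0.487 FPKM in the EMB+ libraries and 19.0, 15.0, 17.8 and 20.0 FPKM in the EMB- libraries (-3.44, SE 0.21, adjusted p = 1.6e-12), the reverse, and Ndufa4l2, another gene induced by low oxygen, was lower with 160.2, 118, 154 and 177 FPKM in the EMB+ libraries and 705, 552, 641 and 852 FPKM in the EMB- libraries (-2.16, SE 0.24, adjusted p = 9.0e-08). Every EMB+ library of Car9 was below every EMB- library. Among secreted proteins, Vcan, the proteoglycan versican, had 0.862, 0.378, 0.608 and 0.795 FPKM in the EMB+ libraries and 10.2, 11.8, 14.4 and 10.6 FPKM in the EMB- libraries (-2.94, SE 0.16, adjusted p = 2.2e-13), Adamtsl2, a protein of microfibrils, 0.651 ± 0.353 against 17.25 ± 2.83 FPKM (-3.48, SE 0.24), Fndc1 9.56 ± 1.58 against 80.7 ± 12.3 FPKM (-2.95, SE 0.23) and Gas6, a ligand of TAM receptors, 11.0 ± 0.862 against 60.55 ± 4.29 FPKM (-2.36, SE 0.12). These 4 genes were all lower in EMB+ cells. The transcription factors Glis1 and Foxf2 had 2.29 ± 0.843 against 21.1 ± 2.04 FPKM (-2.78, SE 0.20) and 2.74 ± 1.07 against 19.7 ± 2.35 FPKM (-2.50, SE 0.16). Padi2, an enzyme that citrullinates arginine, had 2.87, 3.67, 2.25 and 2.70 FPKM in the EMB+ libraries and 48.25, 39.6, 43.95 and 43.9 FPKM in the EMB- libraries (-3.55, SE 0.20, adjusted p = 6.0e-13), with every EMB+ library below every EMB- library.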
